A study of Homo sapiens with 6 samples.

Results

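The genes described here build ribosomes: 36 listed genes for nucleolar proteins, ribosomal RNA (rRNA) processing factors and the RNA polymerase I machinery. They were found by matching Ensembl identifiers to gene symbols in a table of 17211 genes, and 35 of the 36 were measured; BOP1 was not analysed here. Polyadenylated RNA was sequenced from CAOV2 cells, an ovarian cancer line of human origin that the titles also call primary, grown in serum-supplemented medium. The 3 siYAP libraries came from cells given 100 pmol of an siRNA reagent against YAP, and the 3 siNT libraries from cells given 100 pmol of a non-targeting siRNA, with 6 µL of the same lipid reagent for 2 days and collection at day 3. Because each siRNA was bought from its own supplier, an effect of losing YAP cannot be told apart from one of the reagent. The labels call the libraries biological replicates without naming separate cultures or days, so p-values here rest on the spread among the libraries alone, which may be technical.

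Ribosomes are assembled in the nucleolus. RNA polymerase I transcribes a long precursor rRNA, small nucleolar ribonucleoproteins (snoRNPs) guide its methylation and pseudouridylation, and separate sets of assembly factors cleave and fold it into the small (40S) and large (60S) subunits. The genes for these proteins are known to be expressed together in growing cells, and the MYC and MAX transcription factors are known to bind E-box sequences in many of their promoters.

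Values are the authors' normalized read counts, that is, reads per gene scaled by a size factor for each library, from libraries of 25478595 to 31790340 reads. YAP1 itself was at 6221, 5801 and 5955 normalized counts in siNT and at 278, 327 and 294 in siYAP, or 5.00% of the control. Among markers fixed for this cell type, the keratin genes KRT7, KRT8 and KRT18 and EPCAM were present, while the ovarian markers PAX8 (28.8 ± 13.9 in siNT, SD, n = 3) and MUC16 (11.9 ± 3.67 in siNT, SD, n = 3) were near the floor, as were MSLN and FOLR1, and WT1, SOX17 and EMX2 were not analysed here. The summed level of the 10 measured epithelial and ovarian markers of 13 listed was 83320 to 90185 in siNT and 61828 to 66956 in siYAP. These 10 did not move together: 3 fell, 2 rose and 5 were not called, with log2 fold changes from -0.97 to 1.19. The sum of 4 measured fibroblast markers of 5 listed was 4576 to 5319 in siNT and 13062 to 13558 in siYAP, carried by LUM and COL3A1. Of these 4, 3 rose and 1 fell. The sum of 3 measured immune markers of 5 listed was 137 to 162 in siNT and 107 to 128 in siYAP, where 2 fell and 1 rose. No measured marker of these lists was at 0 in any library, PTPRC, CD3E and DCN were not analysed here, none of 4 endothelial markers was analysed here, and the part of other cells in the results below was not tested. In such bulk RNA, fewer cells of a type and less RNA per cell cannot be told apart.

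Nearly the whole set was lower in cells given the siRNA against YAP. Of the 35 measured genes, 31 fell, HEATR1 alone rose, and WDR12, NOB1 and PNO1 were not called (limma with Benjamini-Hochberg adjustment over all 17200 genes tested, adjusted p under 0.05). Over all tested genes 28.1% were called lower and 28.6% higher. All 35 genes are well expressed, and among the 6348 tested genes whose mean reached 1000 normalized counts 43.3% were called lower and 29.2% higher. The falls were small: those that passed left between 57.9% and 92.5% of the control level, 8 of the 31 went below 75% of it, and 10 of the 31 were under 0.25 on the log2 scale. The median log2 fold change of the 35 genes was -0.27, against 0.00 over all tested genes and -0.07 over those with a mean of at least 1000.

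The shift was seen in each library. The median deviation of the 35 genes from their siNT mean, on the log2(value + 1) scale, was -0.02, -0.01 and 0.03 in siNT replicates 1, 2 and 3 and -0.27, -0.27 and -0.27 in the siYAP replicates. In 29 genes all siYAP libraries lay below all siNT libraries. That arrangement was found in 30.6% of all tested genes and in 44.8% of those with a mean of at least 1000. In HEATR1 they lay above, as in 30.9% and 30.7% of these genes. Together the 35 genes took 0.735% ± 0.00773 of all normalized counts in siNT and 0.641% ± 0.00596 in siYAP (SD, n = 3). The values depend on the scaling of the libraries, because the siYAP totals are smaller. With all libraries set to equal totals, 24 of the 35 fell, 1 rose and the median was -0.19, and the calls over all genes moved from 4926 higher and 4841 lower to 6050 higher and 3700 lower.

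**Figure D1:**
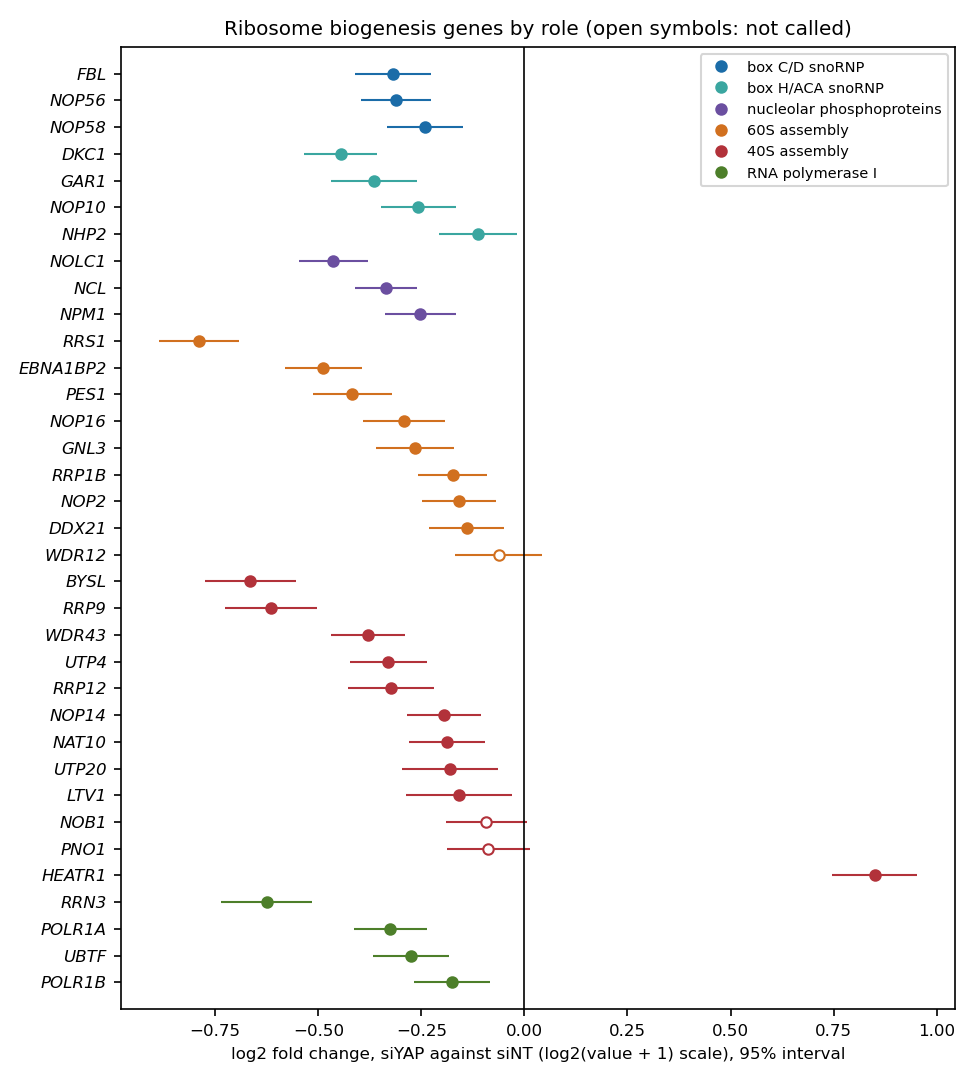
Log2 fold change (siYAP against siNT, horizontal axis) of the 35 measured ribosome biogenesis genes, grouped and coloured by role, with 95% confidence intervals from limma; open symbols were not called. RRS1, BYSL, RRN3 and RRP9 lie farthest to the left, and HEATR1 is the only gene to the right of 0.

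**Figure D2:**
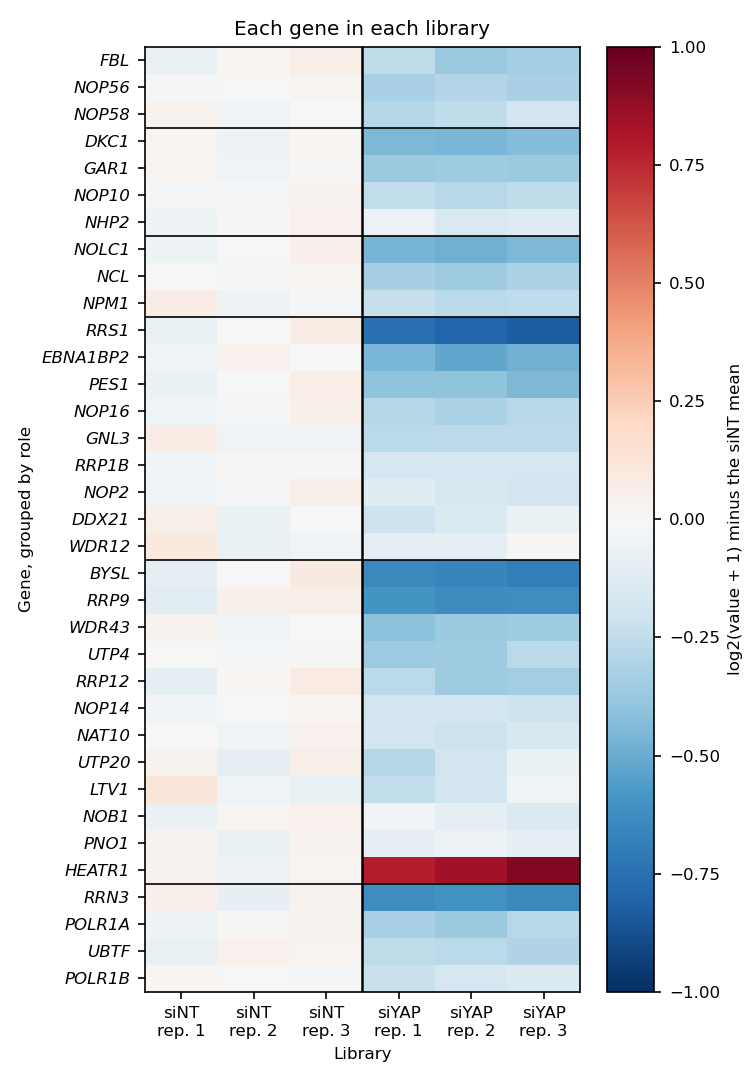
Deviation of each gene from its siNT mean on the log2(value + 1) scale (colour) in each of the 6 libraries (columns), with genes in rows grouped by role. The 3 siYAP columns are blue in nearly every row, most in RRS1, BYSL, RRP9 and RRN3, and red in HEATR1.

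Many, but not all, of the promoters of these genes hold a sequence that the list did not use. RefSeq promoter windows on GRCh38.p14, reaching from 250 bases before the annotated start to 50 after it, were matched by symbol for 30 of the 35 genes. The E-box CACGTG, which reads the same on both strands, was present in 17 of the 30 (56.7%), in 12.2% of 11716 tested genes with a window, and in 14.2% of the 5239 such genes with a mean of at least 1000. In all 17 at least 1 E-box lay with its centre within 50 bases of the start, a stretch chosen after seeing the positions. There 5.21% of tested genes have one, and 6.39% of those with a mean of at least 1000. The 9 sequences below, chosen after seeing the positions, show where the motif lies. Most are from genes of small-subunit assembly, and the rest are from large-subunit assembly and the snoRNPs. None of the 17 genes was listed under the nucleolar phosphoproteins or the RNA polymerase I machinery. Genes without a matched window were not searched, and their roles are not given here. The E-boxes nearest the start in the other 8 genes begin between positions -31 (DDX21) and 43 (EBNA1BP2) and include ones farther from the start than any shown, such as NOP2 at 36 and GAR1 at 32. Each is given 5′ to 3′ on the gene's strand with the 6-base motif in capitals. The position is that of the motif's first base, counted from 1 at the first transcribed base, with -1 just before it.
BYSL, position 29, chr6:41921517-41921542, plus strand: cttcagtcccCACGTGcgatccttcc
RRP9, position -5, chr3:51941894-51941919, minus strand: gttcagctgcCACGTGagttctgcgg
PES1, position 14, chr22:30591882-30591907, minus strand: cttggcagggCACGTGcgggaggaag
WDR43, position 4, chr2:28894660-28894685, plus strand: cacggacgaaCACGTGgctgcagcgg
UTP4, position -16, chr16:69132623-69132648, plus strand: agcgcgcgcgCACGTGgggccggggc
FBL, position 7, chr19:39846358-39846383, minus strand: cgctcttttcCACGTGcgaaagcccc
NOP10, position -11, chr15:34343132-34343157, minus strand: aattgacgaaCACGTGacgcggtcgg
NAT10, position -15, chr11:34105604-34105629, plus strand: tgcgcttgcgCACGTGctgtctacca
PNO1, position 10, chr2:68157887-68157912, plus strand: tgcagctgcgCACGTGtttcagccgg

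Within the set, genes with and without an E-box had medians that were the same to this precision. The median log2 fold change was -0.27 in the 17 genes with an E-box, of which 16 fell (PNO1 was the exception), and -0.27 in the 13 without, of which 10 fell. HEATR1, the gene that rose, has no E-box in its window. It has the core motif of the TEAD factors, the DNA-binding partners of YAP, searched as CATTCC or its reverse complement GGAATG, which does not overlap the E-box. That motif is shown for the 1 gene that rose.
HEATR1, position -72, chr1:236604573-236604598, minus strand: tgtctcgtcgCATTCCcggcaagctt
The same motif was in 5 of the 30 windows (16.7%), those of BYSL, GAR1, NHP2, NPM1 and HEATR1, and in 15% of tested genes with a window. The other 4 of these genes fell. A match is only a run of letters in the window, and binding was not measured.

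**Figure D3:**
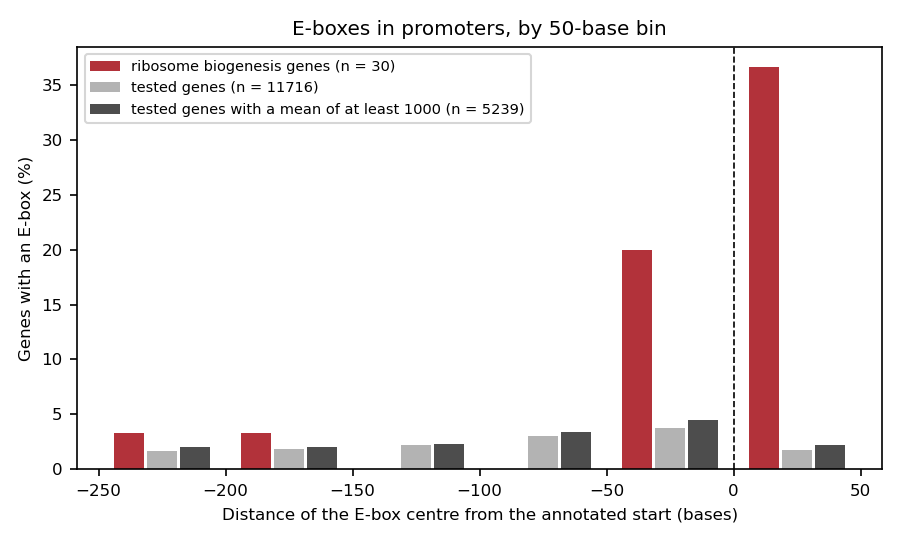
Percent of genes with an E-box (vertical axis) in each 50-base bin of distance from the annotated start (horizontal axis), for 30 ribosome biogenesis genes, 11716 tested genes and the 5239 of these with a mean of at least 1000. In the bin just before the start 20% of the ribosome biogenesis genes have one, against 3.76% of tested genes and 4.50% of the 5239. In the bin just after it 36.7% have one, against 1.72% and 2.18%.

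MYC and MAX network genes include some of the factors that bind the E-box. Of these 12 genes, 3 rose (25%), 1 fell (8.33%) and 8 were not called, with a median of 0.05. Over all tested genes 28.6% were called higher and 28.1% lower. MYC was at 323.9 ± 17.9 in siNT and 352.5 ± 3.6 in siYAP (SD, n = 3; log2 0.12, limma adjusted p = 0.195). MXD3 fell (log2 -0.34), and MYCN, a paralog of MYC at 1.81 ± 1.16 in siNT and 19.4 ± 3.69 in siYAP (SD, n = 3), rose from the floor.

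Box C/D snoRNPs carry out 2′-O-methylation of rRNA, and the 3 of their core genes in the set fell, as did SNU13, the remaining core gene (log2 -0.28). FBL, encoding the methyltransferase fibrillarin (ENSG00000105202, GRCh38 chromosome 19, 39834458 to 39846414, minus strand), was at 13606, 14542 and 14918 normalized counts in siNT and 12027, 11113 and 11362 in siYAP. Every siYAP library was below every siNT library, by a log2 fold change of -0.32 (standard error 0.0443, limma adjusted p = 2.10e-06). NOP56, a scaffold protein of the particle, was at 7797, 7848 and 8018 in siNT and 6313, 6444 and 6314 in siYAP (log2 -0.31). Its partner NOP58 was at 4814, 4574 and 4674 in siNT and 3851, 3937 and 4105 in siYAP (log2 -0.24). No difference between their falls was detected: the log2 ratio of FBL to NOP56 within a library was 0.863 ± 0.0518 in siNT and 0.854 ± 0.0721 in siYAP (SD, n = 3; two-sided exact permutation p = 0.9). The 3 libraries of each group overlapped in all 3 ratios between these genes.

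Box H/ACA snoRNPs convert uridine to pseudouridine, and their core proteins are also part of telomerase. All 4 core genes fell, with log2 fold changes from -0.45 to -0.11. DKC1, encoding the pseudouridine synthase dyskerin (ENSG00000130826, GRCh38 chromosome X, 154762742 to 154777689, plus strand), was at 6633, 6265 and 6588 in siNT and 4755, 4742 and 4809 in siYAP, a log2 fold change of -0.45 (standard error 0.0425, limma adjusted p = 8.39e-09). GAR1, a core protein of the particle, was at 1603, 1534 and 1588 in siNT and 1219, 1231 and 1216 in siYAP (log2 -0.37). NOP10, the smallest protein of the particle, was at 3952, 3957 and 4093 in siNT and 3380, 3308 and 3352 in siYAP (log2 -0.26). The groups did not overlap for any of these 3 genes.

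NHP2, the RNA-binding core protein of the same particle, was at 3773, 3932 and 4019 in siNT and at 3761, 3513 and 3571 in siYAP. The highest siYAP library lay just under the lowest siNT library, and its fall (log2 -0.11, limma adjusted p = 0.0412) lost the call in 10 of 16 alternatives. Those included leaving out siNT replicate 2 (log2 -0.11, adjusted p = 0.0983), siNT replicate 3 (-0.09, 0.162), siYAP replicate 2 (-0.09, 0.189) or siYAP replicate 3 (-0.10, 0.1004). NHP2 shares 414 exonic bases, 27.4% of its merged exons, with RMND5B on the other strand, which rose by a log2 of 0.28. The ratio of DKC1 to NHP2 within a library, which no scaling can change, went from a log2 of 0.733 ± 0.0731 in siNT to 0.400 ± 0.0536 in siYAP (SD, n = 3), or 79.4% of the control ratio. Of 11 ratios between subunits of the same complex, 8 did not overlap between groups, among them all 6 within the box H/ACA set. Those 6 are built from 4 genes and are not independent. Among single genes with a mean of at least 1000, siYAP lay wholly below siNT in 44.8% and wholly above in 30.7%. The share among other gene pairs was not analysed here. Each of the 8 ratios had an exact permutation p of 0.1, the smallest that 3 against 3 libraries can give. Their adjusted p was 0.138 over the 11 pairs, so none passed.

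The nucleolar phosphoproteins are among the most abundant proteins of the nucleolus, and all 3 of their genes fell. NCL, encoding nucleolin, which binds precursor rRNA (ENSG00000115053, GRCh38 chromosome 2, 231453531 to 231483641, minus strand), was at 39312, 39060 and 40194 in siNT and 31400, 30832 and 31730 in siYAP. It had the highest normalized counts of the set and fell to 79.2% of the control (log2 -0.34, standard error 0.0364, limma adjusted p = 6.01e-08). NPM1, encoding the chaperone nucleophosmin, was at 13796, 12642 and 12954 in siNT and 11167, 10875 and 11013 in siYAP (log2 -0.25). NOLC1, a chaperone of snoRNPs, was at 14263, 14698 and 15262 in siNT and 10697, 10562 and 10808 in siYAP (log2 -0.46), the largest fall of the 3. NPM1 has 45 annotated pseudogenes, of which 5 are in the table. The highest of these, NPM1P27, was at 244.6 ± 29.8 in siNT and 224.5 ± 18.1 in siYAP (SD, n = 3; limma adjusted p = 0.343), and how reads shared between copies were counted is not given in the sources used here.

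Among 9 measured genes of 60S assembly, 8 fell and WDR12 was not called. RRS1, which helps bring the 5S ribonucleoprotein into the large subunit (ENSG00000179041, GRCh38 chromosome 8, 66429028 to 66430733, plus strand), had the largest fall of the whole set. It was at 5525, 5780 and 6116 in siNT and 3453, 3356 and 3269 in siYAP, or 57.9% of the control (log2 -0.79, standard error 0.0467, limma adjusted p = 3.42e-12). EBNA1BP2, an early 60S assembly factor, was at 3890, 4129 and 4022 in siNT and 2918, 2799 and 2869 in siYAP (log2 -0.49). Neither gene's groups overlapped.

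PES1 and WDR12 encode partners, with BOP1, in the complex that processes the large-subunit rRNA. PES1 was at 4130, 4334 and 4527 in siNT and 3280, 3275 and 3168 in siYAP, with no overlap (log2 -0.42, limma adjusted p = 8.30e-08). WDR12 was at 3571, 3197 and 3262 in siNT and 3120, 3120 and 3359 in siYAP, so that its groups overlapped (log2 -0.06, 95% interval -0.17 to 0.04, limma adjusted p = 0.309). The log2 ratio of PES1 to WDR12 was 0.374 ± 0.143 in siNT and 0.0191 ± 0.0897 in siYAP (SD, n = 3; exact permutation p = 0.1).

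The other 60S genes fell less. NOP16 (log2 -0.29) and GNL3, the GTPase nucleostemin (log2 -0.27), were near the median of the set. RRP1B (log2 -0.17), the rRNA cytosine methyltransferase gene NOP2 (log2 -0.16) and DDX21, an RNA helicase of the nucleolus (log2 -0.14), were at the smaller end. DDX21 was second to NCL in normalized counts, at 20332, 18630 and 19586 in siNT and 16929, 17610 and 18604 in siYAP. Its lowest siNT library and its highest siYAP library nearly met, and the call was lost without siYAP replicate 1 (log2 -0.11, adjusted p = 0.0556). With equal totals, RRP1B, NOP2 and DDX21 were at -0.09, -0.07 and -0.05 and were not called.

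In 40S assembly, 9 of 12 genes fell, 1 rose and 2 were not called. BYSL, encoding bystin, a factor of the maturing small subunit (ENSG00000112578, GRCh38 chromosome 6, 41921188 to 41933046, plus strand), was at 2065, 2208 and 2348 in siNT and 1408, 1397 and 1365 in siYAP. RRP9, a protein of the U3 snoRNP that starts small-subunit processing, was at 1888, 2115 and 2126 in siNT and 1348, 1318 and 1328 in siYAP. Neither gene's groups overlapped, and they fell to 63.0% (log2 -0.66, standard error 0.0529) and 65.1% (log2 -0.62, standard error 0.0537) of the control (limma adjusted p = 4.56e-10 and 2.01e-09). RRP12, a factor for export of the small subunit, fell by 0.32 on the log2 scale. NOP14, a processome protein (log2 -0.19), NAT10, the acetyltransferase of small-subunit rRNA (log2 -0.19), and UTP20 (log2 -0.18) fell less. UTP20 lost its call without siNT replicate 3 (log2 -0.15, adjusted p = 0.0588) or siYAP replicate 1 (-0.13, 0.0668).

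The smallest fold changes of this branch were in PNO1, NOB1 and LTV1. NOB1, the endonuclease that makes the final cut in small-subunit rRNA, was at 3671, 3914 and 3952 in siNT and 3763, 3587 and 3468 in siYAP (log2 -0.09, 95% interval -0.19 to 0.01, limma adjusted p = 0.1004). It was called without siNT replicate 1 (log2 -0.13, adjusted p = 0.0170) or siYAP replicate 1 (-0.12, 0.0499). Its partner PNO1 was at 2192, 2026 and 2187 in siNT and 1989, 2045 and 1991 in siYAP (log2 -0.09, 95% interval -0.19 to 0.01, limma adjusted p = 0.136). The groups of both genes overlapped. LTV1, which leaves the small subunit during its maturation, was at 1532, 1369 and 1340 in siNT and 1190, 1238 and 1371 in siYAP. Its groups overlapped, and its fall (log2 -0.16, limma adjusted p = 0.0334) was lost in 8 of 16 alternatives. Among them were leaving out siNT replicate 1 (log2 -0.10, adjusted p = 0.148), siYAP replicate 1 (-0.12, 0.148) or siYAP replicate 2 (-0.14, 0.111). Whether these 3 genes differ from the rest was not tested.

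HEATR1 went the other way. It encodes a large scaffold of the t-UTP subcomplex, which binds the precursor rRNA first and is known to link its transcription to its processing (ENSG00000119285, GRCh38 chromosome 1, 236549005 to 236604504, minus strand). Its normalized counts were 1904, 1789 and 1897 in siNT and 3206, 3336 and 3537 in siYAP. All siYAP libraries lay far above all siNT libraries, at 180% of the control (log2 0.85, standard error 0.0497, 95% interval 0.75 to 0.95, limma adjusted p = 2.76e-12). Over 16 alternatives its log2 fold change stayed between 0.81 and 0.94 and its call was kept. The other 5 genes of the t-UTP subcomplex all fell: WDR43 (log2 -0.38), UTP4 (log2 -0.33), and, from the wider list, UTP15 (log2 -0.32), NOL11 (log2 -0.25) and WDR75 (log2 -0.20). WDR43 was at 5446, 5151 and 5325 in siNT and 3990, 4103 and 4138 in siYAP, and no interval of these 5 genes reached that of HEATR1.

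HEATR1 shares 2095 exonic bases, 23.2% of its merged exons in GENCODE 29, with LGALS8 on the opposite strand. LGALS8, a galectin gene, was at 2429 in siNT and 3672 in siYAP and also rose (log2 0.60). The library kit keeps strand, but the strand setting used in counting is not given in the sources used here, and without it reads from such pairs cannot be told apart. In all, 13 of the 35 genes overlap another listed gene. Among the 22 that do not, all 22 fell and the median was -0.32. Among the 13 that do, 9 fell, 1 rose and 3 were not called. Partners of those 3 had low means: CARF (65.6) and KRT8P52 (6.98) for WDR12, NQO1-DT (9.17) for NOB1 and an unnamed gene (27.3) for PNO1. WDR12, NOB1 and PNO1 themselves had means of 3271, 3726 and 2072. Some pairs, such as RRN3 and PDXDC1, share no exonic base. The part of overlap in the calls was not tested.

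**Figure D4:**
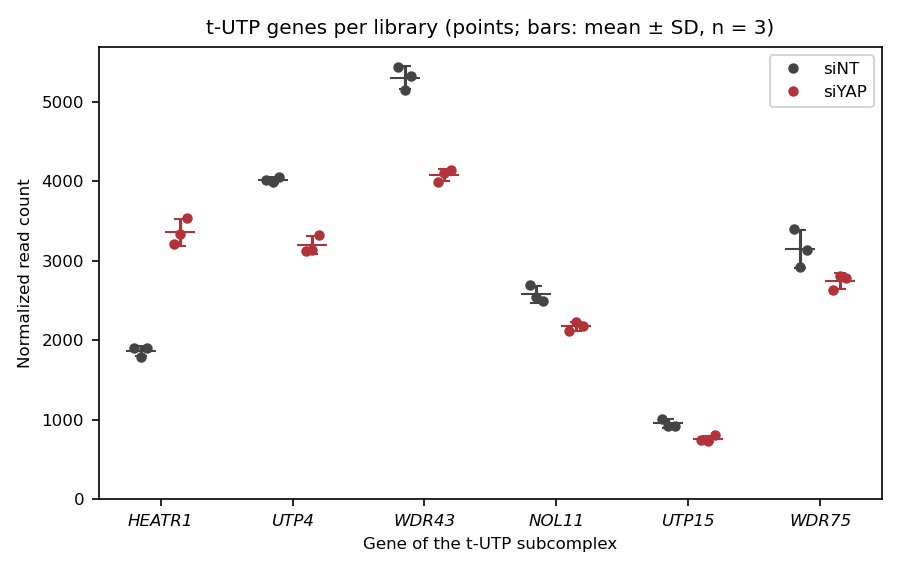
Normalized read counts (vertical axis, from 0) of the 6 genes of the t-UTP subcomplex in each library (points), with mean and SD over 3 libraries per group (bars). HEATR1 rises from between 1789 and 1904 to between 3206 and 3537, while the other 5 genes are lower in siYAP.

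RNA polymerase I makes the precursor rRNA, and the 4 genes of its machinery in the set all fell; of 17 further measured genes of this machinery, 10 fell and 7 were not called. RRN3, the initiation factor that recruits the polymerase to the rRNA gene promoter (ENSG00000085721, GRCh38 chromosome 16, 15060022 to 15094317, minus strand), was at 1707, 1558 and 1693 in siNT and 1071, 1084 and 1056 in siYAP. It fell to 64.8% of the control (log2 -0.63, standard error 0.0533, limma adjusted p = 1.41e-09). Its pseudogenes RRN3P1 and RRN3P3 did not pass (log2 -0.07 and 0.01, limma adjusted p = 0.786 and 0.958). PDXDC1 on the opposite strand shares no exonic base with it in the annotation and rose (log2 0.65).

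The polymerase subunits and UBTF fell less than RRN3 did. POLR1A, the largest subunit, was at 8013, 8379 and 8508 in siNT and 6626, 6407 and 6844 in siYAP (log2 -0.33). POLR1B, the next largest, was at 3768, 3703 and 3686 in siNT and 3180, 3312 and 3384 in siYAP (log2 -0.18), and was not called with equal totals (log2 -0.09, adjusted p = 0.0940). UBTF, the factor that keeps rRNA genes open, was at 5707, 6199 and 6113 in siNT and 5044, 4973 and 4875 in siYAP (log2 -0.27). The interval of RRN3 (-0.74 to -0.51) lay below those of POLR1A (-0.41 to -0.24), UBTF (-0.37 to -0.18) and POLR1B (-0.27 to -0.08).

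The levels of the genes spanned a wide range. Per kilobase of merged exons, NOP10 (7221 normalized counts per kilobase in siNT), FBL (6606) and NCL (5704) were highest, and HEATR1 (205.9) and UTP20 (283.3) lowest. In siYAP, HEATR1 at 371.3 per kilobase was above UTP20 at 250.1, RRN3 at 257.5 and WDR12 at 351.7. Merged exons include ones these cells may not use, so that this scale understates genes with long rare exons.

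A feature of some of the genes was position around snoRNA genes, which in animals mostly lie in introns of host genes. In GENCODE 29, 6 of the 35 genes (17.1%) hold at least 1 snoRNA gene on their own strand, against 1.52% of 13338 tested protein-coding genes. They were GNL3 (6 snoRNA genes), NOP56 (5), NOP58 (4), NCL (3), WDR43 (3) and DKC1 (2), and all 6 fell, as did 31 of the 35 genes. The share of hosts among tested genes of like expression was not analysed here. Of 16 noncoding host genes of snoRNAs, 14 fell, SNHG20 rose (log2 0.37) and SNHG16 was not called, with a median of -0.35. SNHG9 fell most (log2 -0.72), from 109 ± 28.4 to 64.4 ± 3.62 normalized counts (SD, n = 3).

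Most ribosome biogenesis genes outside the list moved in the same direction. Of 144 measured genes in 5 further lists, 112 fell, 5 rose and 27 were not called, with a median of -0.27. By list, 34 of 44 other 40S assembly genes and 49 of 55 other 60S assembly genes fell. So did 10 of 17 other RNA polymerase I genes, 10 of 13 genes of snoRNP assembly and rRNA modification, and 9 of 15 RNA exosome genes. The share called lower was 28.1% of all tested genes and 43.3% of those with a mean of at least 1000. The RNA polymerase I list (58.8%, median -0.17) and the exosome list (60%, median -0.16) lay nearest to these shares. The largest fall of each list was in the processome gene PWP2 (log2 -0.89), the nucleolar protein gene SURF6 (log2 -0.84), the snoRNP assembly ATPase gene RUVBL2 (log2 -0.54), the exosome gene EXOSC6 (log2 -0.52) and the shared polymerase subunit gene POLR2E (log2 -0.46). The 5 that rose did so slightly: EFL1, a GTPase of late 60S maturation (log2 0.31), the 40S assembly genes NOP9 (log2 0.18), UTP23 (log2 0.16) and RIOK1 (log2 0.15), and the exosome nuclease gene DIS3 (log2 0.13).

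Genes for the products of this pathway and for cell division fell as well. Of 78 measured cytosolic ribosomal protein genes, 61 fell, 3 rose and 14 were not called (median -0.26), with RPL22 highest (log2 0.38) and RPS10, a gene with few reads here, lowest (log2 -0.66). Of 12 proliferation genes, 11 fell and MKI67 was not called (log2 -0.02), with a median of -0.45 and the largest fall in RRM2, a ribonucleotide reductase subunit gene (log2 -1.32). Their part in the falls of the ribosome biogenesis genes was not tested. Earlier work on these fold changes had picked the 3′ UTR heptamers TTCTTAA, then also GAGAGGA, and besides them GATAAAG. At least 1 of these 3, read on the transcript's strand, was present in 8 of the 35 genes (22.9%) and in 35.8% of 13148 tested genes. Of the 8, 7 fell, with a median of -0.36, and of the 27 without, 24 fell, with a median of -0.26.

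**Figure D5:**
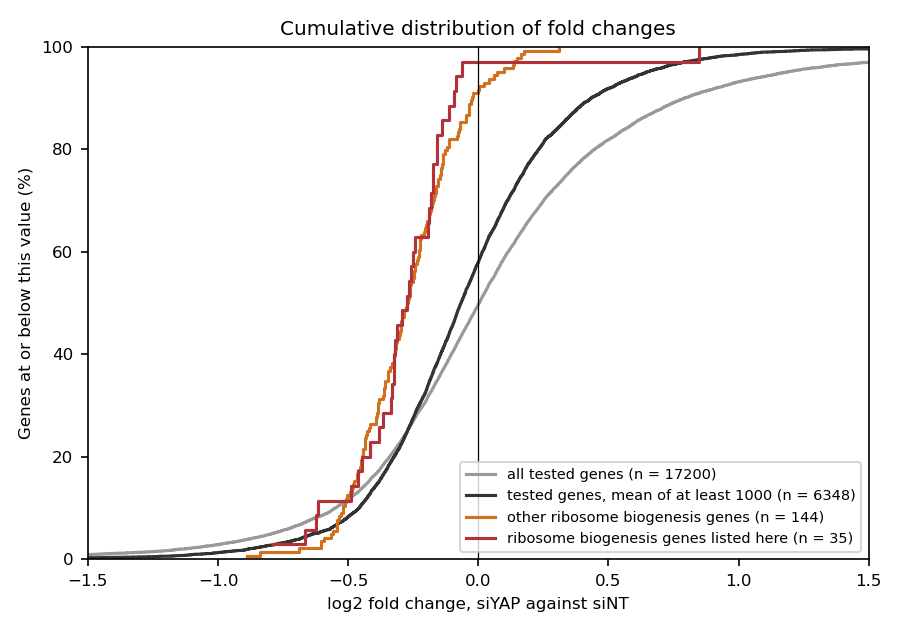
Percent of genes (vertical axis) with a log2 fold change at or below the value on the horizontal axis, for the 35 ribosome biogenesis genes, 144 other ribosome biogenesis genes, all 17200 tested genes and the 6348 with a mean of at least 1000; values beyond ±1.5 are not shown. The lines of both ribosome biogenesis sets lie to the left and cross 50% near -0.27, while that of all tested genes crosses it near 0.00.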

How the data were processed

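The deposited table holds the authors' normalized signal, the reads of each gene scaled by a size factor for the library. In each library 100% of values were whole multiples of what 1 read is worth, within 0.01 of a read, so whole reads were recovered. FastQC, HISAT2, HTSeq and DESeq2 with hg19 and mm9 are named per the submitters' processing notes; versions, roles, annotation, strand setting and gene filter: not given in the sources used here. Groups came from the sample titles.

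The test was limma 3.58.1 (trend, robust) in R 4.3.3 on log2(value + 1), group as the only term, over the 17200 genes that reached 1 in at least 3 libraries. Calls are Benjamini-Hochberg adjusted p under 0.05. Fold changes on this scale understate low genes. The recovered reads were also tested with edgeR 4.0.16 (4916 genes higher, 4655 lower) and DESeq2 1.42.0 (4393 and 4385). Tested on simulated data with 50 altered genes per fold size, this test found 26 at 1.2-fold, 43 at 1.5-fold, 49 at 2-fold and 50 at 3-fold. It made 9 false calls in 17196 genes. The simulated spread followed an assumed formula and was not estimated from these libraries. Rises and falls were equally many, and the size factors were known. The simulation therefore does not give the rates of missed or false calls in the deposited libraries.

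Symbols came from a name table (16662 identifiers) and GENCODE 29 (81 more); coordinates are GENCODE 29 on GRCh38, since the deposited values carry none. The genes, lists and motifs were chosen with earlier results of these data known. Per-library values are given for, in each role, the called genes that moved most, the highest gene and those not called; from other lists, the called genes with the largest rise and fall. HEATR1's subcomplex, further rises and some per-library values were added after seeing the data. Protein composition was not analysed here.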

Additional observations from a re-analysis of the deposited data

How the results depend on the processing

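Of 31 falling genes, 24 kept their call in all 16 alternative settings; NHP2 (10), LTV1 (8), UTP20 (4), DDX21 (3), NOP2, RRP1B and POLR1B (1 each) lost it in some, all 7 with equal totals, and NOB1 gained it in 2. The numbers of the 35 genes called lower were 24 with equal totals, 27 without the variance trend, 29 with upper-quartile factors, 30 with edgeR, 29 with DESeq2 and 29 to 31 with 1 library left out; HEATR1 alone rose in each. The median of -0.27 was -0.26 with upper-quartile factors, -0.19 with equal totals, -0.31 to -0.27 with 1 library left out, and -0.32, with 22 lower and 0 higher, among the 22 genes that overlap no other listed gene, a choice made after seeing the data. That of the 144 other genes was -0.25 with upper-quartile factors and -0.19 with equal totals, and their number of rises, 5, was 10 with equal totals, 3 without the trend and 2 to 7 with 1 library left out. With equal totals WDR12 was at 0.025 and PNO1 at 0.000115, which reverses their sign; neither was called. The change in the ratio of FBL to NOP56, -0.01, was between -0.046 and 0.026 with 1 library left out, with the sign reversed without siNT replicate 2, siNT replicate 3 or siYAP replicate 2. The cause of these changes was not tested. The replicate numbers did not pair the libraries: same-numbered libraries had correlations of deviations of -0.092, -0.0015 and 0.0016, and no library correlated best with its own number. With the replicate block, 29 of the 35 genes were lower and 1 higher, and of the 144 others 101 were lower and 2 higher. All 35 genes had over 1000 normalized counts per library, and with 3 libraries a group the exact permutation tests of the ratios could not pass.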
